A study of Mus musculus with 12 samples.

Results

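Imprinted genes are expressed from only 1 of the 2 parental copies in at least some tissues, and 39 of them in 17 imprinted loci were followed in C2C12 cells, a mouse myoblast line that fuses into myotubes after growth factors are withdrawn. The members were chosen by gene symbol from known imprinted loci, out of 26967 genes listed in the files of either day. They were chosen with earlier results of these data known, so counts of members beside shares of all genes are descriptive. Most imprinted loci carry a control region that is methylated on the copy from 1 parent, and this mark decides which copy is transcribed. Several loci pair a protein-coding gene of 1 parental copy with a long noncoding RNA of the other. Many of their products act on growth: paternally expressed genes often promote it and maternally expressed genes often restrain it. H19, Cdkn1c, Igf2 and Dlk1 are also known from muscle formation. The counts do not separate parental copies, so no value below tells which copy was transcribed.

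RNA of WT C2C12 cells and of C2C12 cells homozygous for the PGAM2-K176R knock-in (KI) of the muscle phosphoglycerate mutase, in which a lysine is replaced by arginine, was sequenced at d0 in growth medium with fetal bovine serum and at d4, after 4 days in differentiation medium with little horse serum. Each of the 4 groups had 3 libraries. The study names 1 homozygous C2C12 KI clone, so genotype and clone cannot be told apart. The study's methods speak of biological replicates but name fewer per condition than the 3 libraries here, and the labels do not say which libraries came from separate cultures, so each p-value reflects only how far these libraries spread, which may be technical. A treatment tag in the labels follows genotype and not day and was not used. In bulk RNA, fewer cells of a type and less RNA per cell cannot be told apart.

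Between 16098407 and 21412560 reads per library were assigned to genes. Libraries of a group correlated with each other at 0.989 or higher. The targeted gene, Pgam2, had mean levels of 3.01 FPKM (reads scaled to gene length and library depth) in WT and 5.14 in KI cells at d0, and 127.5 and 10.6 FPKM at d4, so it checks no label: the knock-in replaces a codon and leaves the transcript countable. Of 15 markers of C2C12 cells and myotubes, 8 of 14 tested were lower and 1 higher in KI at d0, against 9.21% and 3.03% of all genes. At d4, 10 of 15 were lower and 1 higher, against 5.98% and 1.76% of all genes. The same shares stand beside the other marker counts of each day. The summed level of these 15 markers at d4 was 7687 to 7969 FPKM in WT and 2312 to 2458 FPKM in KI libraries. Of 10 fibroblast markers, 7 of 7 tested were lower in KI at d0, with sums of 448 to 477 FPKM in WT and 133 to 147 FPKM in KI libraries, and 3 of 9 were lower at d4, with sums of 692 to 718 and 653 to 665 FPKM. Markers of pluripotent cells summed to 1.31 FPKM or less in every library. Markers of placenta and yolk sac, tissues in which many imprinted genes are active, summed to 52.6 to 70.7 FPKM in WT and 141 to 165 FPKM in KI libraries at d0, and to 9.96 to 12.8 and 33.4 to 35.3 FPKM at d4. Of these 14 markers, 3 of 4 tested were higher in KI at d0 and 1 of 3 at d4. Mean d0 levels in WT and KI cells were 32.0 and 105 FPKM for Krt19 and 0.969 and 28.9 FPKM for Rhox5. Prl2c2 went the other way, at 30.2 and 21.2 FPKM, and was not called. Markers of neurons summed to 48.7 to 85.9 FPKM in WT and 127 to 166 FPKM in KI libraries at d0, and to 43.4 to 52.5 and 55.5 to 56.3 FPKM at d4. Of these 8 markers, 2 of 5 tested were higher in KI at d0, and 0 of 4 were higher and 1 lower at d4. Tubb3 alone had d0 means of 50.2 FPKM in WT and 121 FPKM in KI cells. The part of all these markers in the results below was not tested.

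Of the 39 members, 29 were listed at both days, 3 at d0 only and 2 at d4 only, and 5 (Ascl2, Slc22a3, Mirg, Dio3 and Magel2) were not analysed here. A gene was called when its Benjamini-Hochberg adjusted p was under 0.05 and its log2 fold change above 1 or below -1. At d0, edgeR tested 23 members and called 5 lower and 0 higher in KI than in WT cells, against 9.21% of all genes called lower and 3.03% called higher. The 5 were H19, Cdkn1c, Tspan32, Zim1 and Ndn. Cdkn1c and Ndn passed edgeR's filter on low counts only through their WT libraries. Their KI libraries held 3 to 7 reads of Cdkn1c and 5 to 7 reads of Ndn. At d4, limma on log2(FPKM + 1) tested 22 members and called 4 lower (H19, Cdkn1c, Tspan32, Mest) and 3 higher (Peg3, Zim1, Zrsr1), against 5.98% of all genes called lower and 1.76% called higher. The members' median log2 fold change was -0.09 at d0 and -0.06 at d4, beside medians of -0.02 and 0.00 over all genes tested.

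**Figure D1:**
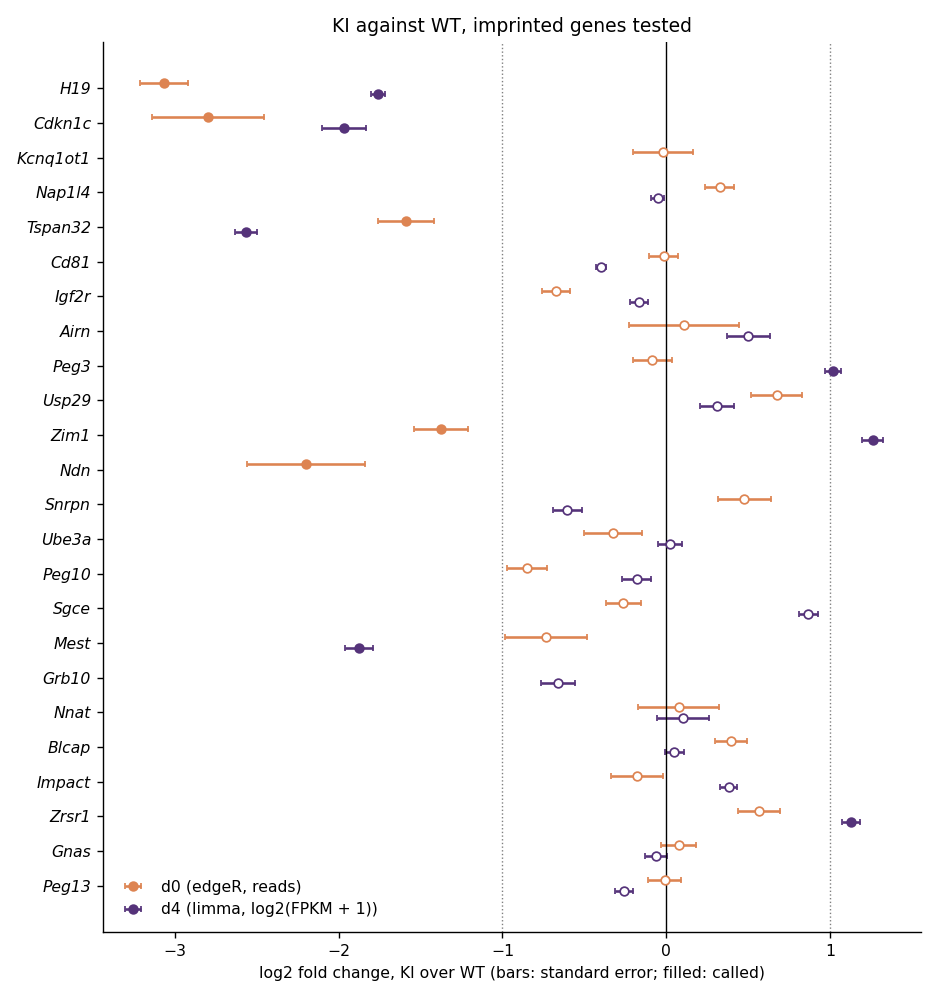
Log2 fold change of KI over WT (x axis) for every imprinted gene tested, at d0 (orange, edgeR on reads) and at d4 (purple, limma on log2(FPKM + 1)). Bars are standard errors, filled points are called genes and dotted lines mark -1 and 1. H19, Cdkn1c and Tspan32 lie left of -1 at both days, while Zim1 lies at -1.38 at d0 and at 1.26 at d4.

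The H19-Igf2 locus on chromosome 7 pairs H19, a maternally expressed noncoding RNA that rises in differentiating muscle, with Igf2, the paternally expressed insulin-like growth factor. H19 (ENSMUSG00000000031) lies on the minus strand from 142575529 to 142578143 in mm10 and overlaps no other gene of the files. At d0 the WT libraries held 309.6, 265 and 209 FPKM of H19 and the KI libraries 27.8, 34.0 and 33.4 FPKM. At d4 they held 5757, 5729 and 5837 FPKM in WT and 1657, 1683 and 1780.2 FPKM in KI cells. Every KI library lay below every WT library of the same day. The WT to KI ratio of mean FPKM was 8.23 at d0 and 3.38 at d4. The log2 fold change was -3.06 (SE 0.15, edgeR adjusted p = 2.48e-08) at d0 and -1.76 (SE 0.04, limma adjusted p = 1.12e-07) at d4. After quantile normalization the d4 value was -0.997 and was no longer called. By mean FPKM, H19 ranked 153 of 23954 listed genes in WT and 1842 in KI cells at d0, and 3 and 9 of 24787 at d4, where it took 1.37% to 1.40% of all reads in WT and 0.424% to 0.450% in KI libraries.

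H19 is the host of miR-675, whose hairpin lies inside its first exon in the mouse, and the mature sequences are shown because the host RNA is the most abundant member in WT cells at both days. Seeds, bases 2 to 8, are in capitals. The sequences are from RefSeq on GRCm38.p6, where the 5p arm lies at chr7:142577112-142577133 and the 3p arm at chr7:142577078-142577099, both on the minus strand. Mature miRNAs were not measured in these libraries.
miR-675-5p: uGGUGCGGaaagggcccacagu
miR-675-3p: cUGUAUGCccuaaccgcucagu

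Igf2 was close to absent. Its 3 libraries per group summed to 2 reads in WT and 1 in KI at d0 and to 22 and 1 at d4, no library exceeded 0.111 FPKM, and it did not pass the filter of any comparison. The WT to KI ratio of reads at d4 was 22.2, with an exact 95% interval of 3.59 to 917 that covers counting error only. Of the 14 partners of Igf2 in the insulin-like growth factor pathway, 14 were tested at d0, with 2 higher and 4 lower in KI, against 3.03% and 9.21% of all genes. At d4, 13 were tested, with 0 higher and 4 lower, against 1.76% and 5.98%. Igf1, the sister ligand, was called lower at both days, with means of 0.594 FPKM in WT and 0.00708 FPKM in KI cells at d0 and 3.87 and 0.0660 FPKM at d4. The binding proteins Igfbp3 (means of 1.72 and 0.0283 FPKM at d0, 4.27 and 0.0265 FPKM at d4) and Igfbp7 (143 and 48.5 FPKM, 115 and 45.7 FPKM) were also lower at both. Igf1 and Igfbp3 passed the filters of both days only through their WT libraries. The 2 higher at d0 encode RNA-binding proteins: Igf2bp1, with means of 0.0113 FPKM in WT and 0.0946 FPKM in KI cells, and Igf2bp3 (log2 fold change 2.74), with 0.203 and 1.39 FPKM. Igf2bp1 passed the filter only through its KI libraries. Irs2, an adaptor of the receptors, was also lower at d0 (-1.11), and the binding protein Igfbp2 at d4 (-1.58). With adjusted p alone, 3 partners were higher and 8 lower at d0, and 5 were higher and 5 lower at d4. Under the fold change threshold at d4, Igfbp5 had means of 733 FPKM in WT and 1144 FPKM in KI cells (0.64). Igfbp4 had 17.1 and 31.4 FPKM (0.84).

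Genes that overlap the 150 kb to either side of H19 did not all follow it. Tnnt3 and Tnni2, which encode subunits of fast muscle troponin and start at -79.3 and -136.3 kb from the start of H19 along the chromosome, were lower in KI cells at both days: mean Tnnt3 was 10.9 and 1.46 FPKM in WT and KI at d0 and 924 and 179.8 FPKM at d4, with log2 fold changes of -2.93 and -2.36. Mean Tnni2 was 6.17 and 2.47 FPKM at d0 and 515 and 101 FPKM at d4. Mrpl23, a mitochondrial ribosomal protein gene between Tnnt3 and H19, had means of 6.27 and 8.01 FPKM at d0 and 7.35 and 8.09 FPKM at d4 and was not called between genotypes. Prr33 (-71.4 kb) had means of 2.51 and 1.33 FPKM at d0 and 8.42 and 9.12 FPKM at d4. Lsp1 (-117.3 kb) had 19.1 and 16.2 FPKM at d0 and 36.2 and 41.5 FPKM at d4. Neither was called. Nctc1, at -19.5 kb and listed at d4 only, had means of 1.62 and 0.358 FPKM and was not called (log2 fold change -0.94). Syt8, a synaptotagmin gene at -143.3 kb, was lower in KI cells at d4, with means of 2.83 and 0.0830 FPKM (log2 fold change -1.81). Syt8 and Nctc1 reached the filter of 0.5 FPKM only in their WT libraries. Ins2, the insulin gene beside Igf2, whose start lies 165.2 kb from that of H19, moved the other way at d0, with a mean of 0.058 FPKM in WT and 5.50 FPKM in KI cells (log2 fold change 6.42, SE 0.61, edgeR adjusted p = 7.64e-06), and was not called at d4 at 2.69 and 5.03 FPKM. At d0 Ins2 passed the filter only through its KI libraries.

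**Figure D2:**
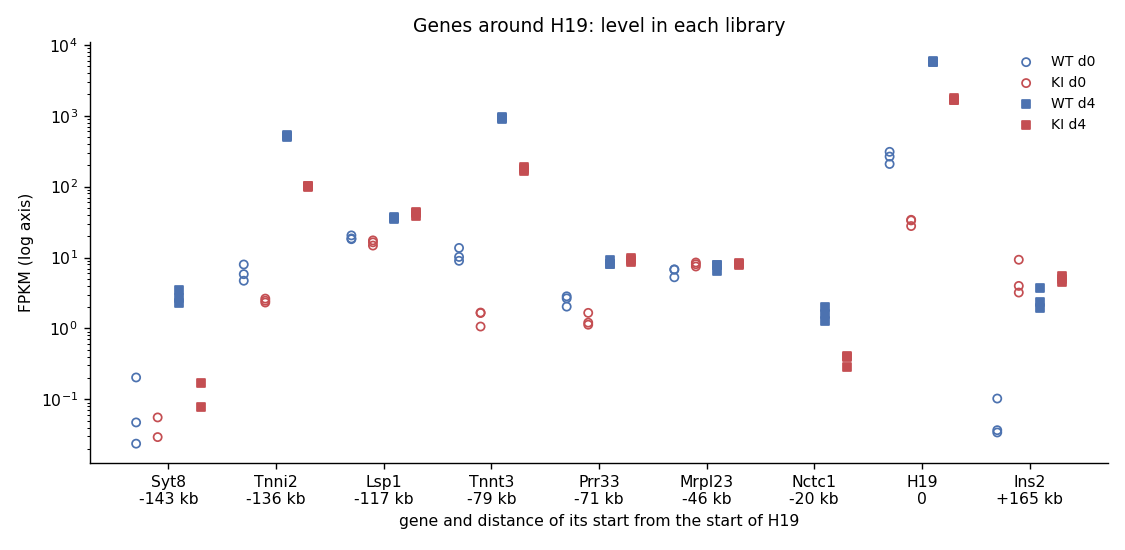
FPKM in each library (log y axis) of genes near H19 with a group mean of at least 1 FPKM, ordered by the distance of their start from the start of H19 in kb. Circles are d0 and squares d4, blue is WT and red KI, and libraries at 0 are not drawn. The KI points of Tnnt3, Tnni2 and H19 lie below the WT points of the same day, those of Mrpl23 do not, and those of Ins2 at d0 lie above.

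The neighbouring Kcnq1ot1 domain holds maternally expressed growth-restraining genes that the paternal noncoding RNA Kcnq1ot1 silences. Cdkn1c, which encodes the cyclin-dependent kinase inhibitor p57 and takes part in the cell cycle exit of muscle precursors, was lower in KI cells at both days. Its d0 levels were 0.944, 1.12 and 0.946 FPKM in WT and 0.191, 0.155 and 0.0847 FPKM in KI libraries. Its d4 levels were 2.54, 3.88 and 3.35 FPKM in WT and 0.0242, 0.0679 and 0.148 FPKM in KI libraries. The groups did not overlap at either day, and the read sums behind them were 134 and 16 at d0 and 361 and 9 at d4. The log2 fold change of Cdkn1c was -2.80 (SE 0.34, edgeR adjusted p = 6.33e-05) at d0 and -1.97 (SE 0.13, limma adjusted p = 1.68e-05) on the log2(FPKM + 1) scale at d4, which understates ratios at low levels. The ratio of mean FPKM, WT over KI, was 6.99 at d0 and 40.6 at d4. Without any 1 of the WT d4 libraries Cdkn1c no longer passed the FPKM filter, which its KI libraries do not reach, and was not tested at d4.

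Tspan32, a tetraspanin gene of the same domain, followed a similar order. Its levels were 1.84, 1.76 and 1.60 FPKM in WT and 0.481, 0.557 and 0.720 FPKM in KI libraries at d0. At d4 they were 15.9, 15.0 and 16.4 FPKM in WT and 2.00, 1.87 and 1.63 FPKM in KI libraries. KI libraries lay below WT libraries at both days. The log2 fold change was -1.59 (SE 0.17, edgeR adjusted p = 2.13e-05) at d0 and -2.57 (SE 0.07, limma adjusted p = 1.55e-07) at d4. An overlapping transcript on the other strand, Tspan32os, cannot be told apart from it where strand was not used in counting.

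The other genes of this domain differed less. Cd81, a tetraspanin at the domain's edge and the second most abundant member at d4 in both genotypes, held 113, 106 and 105 FPKM in WT and 98.9, 112 and 114 FPKM in KI libraries at d0, groups that overlapped. At d4 it held 206, 213 and 212 FPKM in WT and 157, 162 and 158 FPKM in KI libraries, without overlap and below the fold change threshold (log2 fold change -0.40, SE 0.03, limma adjusted p = 3.30e-05). Nap1l4, a histone chaperone gene, ranged from 40.1 to 56.8 FPKM over all 12 libraries and was not called between genotypes. Kcnq1ot1 itself stayed at or below 0.129 FPKM over its 93092 bases, with 268 to 604 reads per group, and its d0 log2 fold change was -0.02 (SE 0.18, edgeR adjusted p = 0.941). Phlda2, a growth restrainer of the placenta, had 6 reads in WT and 0 in KI cells at d4.

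The promoter of Tspan32 is shown with those of Zim1, Peg3, Mest and Zrsr1, the members called between genotypes at 1 FPKM or more that have a window in RefSeq. The windows show the CG dinucleotides at which DNA methylation would be read. They were not chosen as the control regions of the imprinted loci. Methylation was not measured. CG dinucleotides are in capitals, each window holds 300 bases around a transcription start on GRCm38.p6, and all 5 run 5′ to 3′ along the gene's strand. Of the 39 members, 31 matched with 47 windows. The Tspan32 window (chr7:143004796-143005095, plus strand) holds 2 CG, a count that 85.9% of all 32851 windows reach. The Zim1 window (chr7:6696383-6696682, minus strand) holds 20, which 26.5% reach. The windows of Peg3 (chr7:6730370-6730669, minus strand), Mest (chr6:30737800-30738099, plus strand, 1 of its 3 windows) and Zrsr1 (chr11:22971755-22972054, plus strand) hold 13, 17 and 10. The median was 13 over the members' windows and 7 over all windows. CAGCTG, a palindrome and thus the same on both strands, is the E-box sequence that myogenic factors such as MyoD favour. It is in 6 of the members' 47 windows, among them the one of Tspan32, and in 16.3% of all windows. A Mest window that is not printed (chr6:30733256-30733555, 8 CG) also holds it. The Mest window printed was picked for its CG count.
Tspan32: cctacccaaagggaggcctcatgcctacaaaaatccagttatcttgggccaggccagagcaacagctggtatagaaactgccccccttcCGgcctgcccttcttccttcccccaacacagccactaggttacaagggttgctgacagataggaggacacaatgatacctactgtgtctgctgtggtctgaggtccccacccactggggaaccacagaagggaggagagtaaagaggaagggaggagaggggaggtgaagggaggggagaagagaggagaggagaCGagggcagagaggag
Zim1: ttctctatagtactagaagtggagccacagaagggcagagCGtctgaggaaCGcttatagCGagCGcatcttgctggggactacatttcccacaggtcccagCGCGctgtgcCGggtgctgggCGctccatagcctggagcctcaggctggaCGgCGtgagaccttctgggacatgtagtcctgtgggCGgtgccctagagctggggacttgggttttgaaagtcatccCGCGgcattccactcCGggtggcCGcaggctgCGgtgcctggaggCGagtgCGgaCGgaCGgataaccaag
Peg3: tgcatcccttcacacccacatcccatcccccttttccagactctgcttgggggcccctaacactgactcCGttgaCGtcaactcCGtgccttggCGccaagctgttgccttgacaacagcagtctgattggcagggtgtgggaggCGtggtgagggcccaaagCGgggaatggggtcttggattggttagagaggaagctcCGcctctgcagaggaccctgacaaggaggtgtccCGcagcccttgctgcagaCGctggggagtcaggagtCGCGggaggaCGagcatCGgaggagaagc
Mest: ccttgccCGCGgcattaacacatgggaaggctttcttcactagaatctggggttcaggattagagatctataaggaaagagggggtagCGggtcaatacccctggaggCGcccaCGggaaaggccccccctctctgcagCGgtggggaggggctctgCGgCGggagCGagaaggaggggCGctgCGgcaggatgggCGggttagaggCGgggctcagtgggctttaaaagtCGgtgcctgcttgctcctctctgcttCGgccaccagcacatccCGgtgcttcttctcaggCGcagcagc
Zrsr1: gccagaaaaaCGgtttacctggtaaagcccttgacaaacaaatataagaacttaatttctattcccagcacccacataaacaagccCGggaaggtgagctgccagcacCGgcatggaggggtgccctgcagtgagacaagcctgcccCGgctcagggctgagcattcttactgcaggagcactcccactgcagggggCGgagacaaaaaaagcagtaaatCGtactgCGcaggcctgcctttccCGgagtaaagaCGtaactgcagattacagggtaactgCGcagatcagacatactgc

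At the Igf2r locus, the maternally expressed Igf2r encodes the receptor that takes up insulin-like growth factor 2 for breakdown, and the paternal noncoding RNA Airn runs antisense across its start. Igf2r held 19.6, 18.6 and 20.0 FPKM in WT and 12.4, 11.6 and 13.1 FPKM in KI libraries at d0, and 30.4, 31.3 and 31.0 and 28.2, 25.3 and 29.1 FPKM at d4. The groups were apart at both days, but the log2 fold changes of -0.67 (SE 0.09, edgeR adjusted p = 8.22e-05) and -0.16 (SE 0.05, limma adjusted p = 0.0368) were under the threshold. Airn ranged from 0.455 to 0.998 FPKM in WT and 0.528 to 0.942 FPKM in KI libraries at d0. At d4 it ranged from 1.57 to 2.59 and from 2.99 to 3.68 FPKM, and it was called at neither day. Whether reads were counted by strand is unknown here, so Airn and Igf2r cannot be told apart in the stretch they share.

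The Dlk1-Dio3 locus, a source of many muscle microRNAs, was nearly silent. At d0, Dlk1, a paternally expressed membrane ligand that restrains Notch signalling, had 0 reads in WT and 7 in KI cells, and the maternal noncoding RNAs Meg3 and Rian had 2 and 3 and 1 and 6 reads. Rtl1, a paternally expressed gene of retrotransposon origin, had 0 reads in WT and 2 in KI cells at d4. None passed a filter.

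In the Peg3 locus, Peg3 and Zim1 were higher in KI than in WT cells at d4. Peg3 is a paternally expressed zinc finger gene, Usp29 shares its promoter region on the other strand, and Zim1 is a maternally expressed zinc finger gene downstream. Peg3 held 26.5, 32.8 and 32.7 FPKM in WT and 32.7, 26.1 and 29.6 FPKM in KI libraries at d0, groups that overlapped (log2 fold change -0.09, SE 0.12, edgeR adjusted p = 0.588). At d4 it held 43.6, 39.5 and 38.7 FPKM in WT and 83.1, 81.2 and 84.5 FPKM in KI libraries. The d4 log2 fold change was 1.02 (SE 0.05, limma adjusted p = 3.09e-06), which passed the threshold by little: without WT d4 replicate 2 or 3 it was 0.998 and 0.982, and with a pseudocount of 5 it was 0.95, and it was then not called.

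Zim1 was lower in KI cells at d0 and higher at d4. At d0 it held 5.48, 7.55 and 8.59 FPKM in WT and 3.21, 2.59 and 2.68 FPKM in KI libraries. At d4 it held 16.7, 15.5 and 13.8 FPKM in WT and 37.8, 37.6 and 38.8 FPKM in KI libraries. The groups did not overlap at either day. The log2 fold change was -1.38 (SE 0.16, edgeR adjusted p = 4.53e-05) at d0 and 1.26 (SE 0.07, limma adjusted p = 4.35e-06) at d4. As a share of Peg3 FPKM in the same library, Zim1 came to 20.7%, 23.0% and 26.3% in WT and 9.84%, 9.95% and 9.06% in KI libraries at d0. At d4 the shares were 38.4%, 39.2% and 35.8% in WT and 45.5%, 46.3% and 45.9% in KI libraries. Usp29 stayed under 1 FPKM, at 0.226 to 0.256 in WT and 0.378 to 0.433 in KI libraries at d0 and 0.301 to 0.444 and 0.606 to 0.758 at d4, and was not called at either day. The Peg3 and Usp29 windows of RefSeq share 263 bases.

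**Figure D3:**
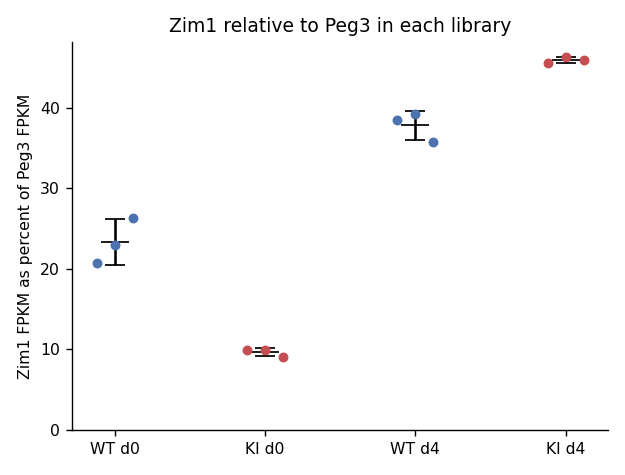
Zim1 FPKM as a percentage of Peg3 FPKM (y axis) in each library (points; blue WT, red KI), with the mean and SD of each group as black bars. KI libraries lie between 9.06% and 9.95% at d0, below the WT libraries, and between 45.5% and 46.3% at d4, above them.

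In the Prader-Willi/Angelman region, Ndn, a paternally expressed gene whose product necdin restrains cell division, was lower in KI cells at d0 with 94 reads in WT and 17 in KI cells (log2 fold change -2.20, SE 0.36, edgeR adjusted p = 0.000529), all at or below 0.486 FPKM. At d4 it had 107 and 13 reads and did not pass the FPKM filter. On reads, edgeR gave -3.07 (SE 0.53, adjusted p = 1.13e-05). Snrpn, a paternally expressed splicing protein gene, had KI libraries above the WT libraries at d0 and below them at d4. It held 1.96, 1.80 and 2.06 FPKM in WT and 2.57, 2.61 and 3.07 FPKM in KI libraries at d0, and 4.52, 3.93 and 4.19 and 2.29, 2.20 and 2.83 FPKM at d4. It was called at neither day, with log2 fold changes of 0.48 (SE 0.16, edgeR adjusted p = 0.0328) and -0.60 (SE 0.09, limma adjusted p = 0.000971). Ube3a, a ubiquitin ligase gene that is imprinted in neurons, ranged from 1.88 to 3.54 FPKM and was not called.

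Sgce and Peg10 are paternally expressed neighbours on chromosome 6 that start close together on opposite strands. Sgce, which encodes epsilon-sarcoglycan of the dystrophin complex, held 3.66, 3.91 and 4.46 FPKM in WT and 3.24, 3.38 and 3.58 FPKM in KI libraries at d0, and 2.83, 2.77 and 2.53 and 5.70, 5.74 and 5.85 FPKM at d4. Its log2 fold change of -0.26 (SE 0.11, edgeR adjusted p = 0.0652) at d0 was not called, nor was that of 0.87 (SE 0.06, limma adjusted p = 1.67e-05) at d4, which became 1.09 and was called with edgeR on reads. Peg10, of retrotransposon origin and needed in the placenta, was at 6.78 to 9.05 FPKM in WT and 4.07 to 4.79 FPKM in KI libraries at d0 and at 1.21 to 1.83 FPKM in all d4 libraries. Its log2 fold change at d0, -0.85 (SE 0.12, edgeR adjusted p = 0.000218), was under the threshold. Ppp1r9a had at most 13 reads in a group.

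Mest, a paternally expressed gene of the alpha/beta hydrolase fold and host of miR-335, separated the genotypes at d4. It held 0.952, 0.861 and 0.637 FPKM in WT and 0.394, 0.626 and 0.467 FPKM in KI libraries at d0, and 4.94, 4.30 and 4.395 and 0.464, 0.608 and 0.460 FPKM at d4. The groups did not overlap at either day. The log2 fold change was -0.74 (SE 0.25, edgeR adjusted p = 0.0318) at d0, not called, and -1.88 (SE 0.08, limma adjusted p = 1.95e-06) at d4. The mature arms of miR-335, at chr6:30741314-30741336 and chr6:30741354-30741375 on the plus strand, share no seed with those of miR-675 and were likewise not measured.
miR-335-5p: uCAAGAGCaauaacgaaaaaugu
miR-335-3p: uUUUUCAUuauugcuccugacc

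Grb10, an adaptor that restrains insulin and growth factor receptors and is maternally expressed in most tissues, had 8 reads in WT and 1 in KI cells at d0 and 295 and 5 at d4. Its d4 libraries were at 0.678, 0.554 and 0.550 FPKM in WT and 0.0218, 0.00508 and 0 FPKM in KI cells, so it passed the FPKM filter only through its 3 WT libraries and was not tested without any 1 of them. On the log2(FPKM + 1) scale this gave -0.66 (SE 0.10, limma adjusted p = 0.00139), not called, whereas edgeR on reads gave -5.87 (SE 0.47, adjusted p = 7.42e-12). Plagl1, a paternally expressed zinc finger gene known as a regulator of other imprinted genes in the mouse, had 15 and 10 reads at d0 and 41 and 1 at d4, a d4 ratio of 41.4 with an exact 95% interval of 7.03 to 1676. It failed the FPKM filter, and edgeR on reads called it lower in KI at d4 (-5.01, SE 0.94, adjusted p = 4.30e-05), a fitted value that rests on 1 KI read and is no bound.

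Zrsr1, a paternally expressed retrogene for a splicing factor, was higher in KI cells at d4. It lies in an intron of Commd1 on the other strand and held 2.56, 3.22 and 3.25 FPKM in WT and 4.70, 4.38 and 4.54 FPKM in KI libraries at d0, and 3.803, 3.92 and 3.99 and 9.29, 9.71 and 10.2 FPKM at d4. KI libraries lay above WT libraries at both days. The log2 fold change was 0.57 (SE 0.13, edgeR adjusted p = 0.00393) at d0, under the threshold, and 1.13 (SE 0.05, limma adjusted p = 2.58e-06) at d4. Its reads cannot be told apart from those of unspliced Commd1 where strand was not used.

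Other abundant members were close between genotypes. Gnas, which encodes the stimulatory G protein alpha subunit, held 11.6, 9.62 and 11.2 FPKM in WT and 9.95, 12.3 and 12.4 FPKM in KI libraries at d0, and 16.9, 18.3 and 17.8 and 15.4, 17.0 and 18.4 FPKM at d4, overlapping at both days. Impact, a paternally expressed regulator of the amino acid response, held 15.6, 21.5 and 18.9 FPKM in WT and 20.9, 14.3 and 15.3 FPKM in KI libraries at d0, and 21.6, 20.1 and 19.2 and 26.3, 26.3 and 27.7 FPKM at d4. Its groups were apart at d4 but differed by only 0.38 (SE 0.05) on the log2(FPKM + 1) scale. Blcap held 11.4, 10.6 and 11.1 FPKM in WT and 13.8, 15.7 and 14.7 FPKM in KI libraries at d0, without overlap. At d4 its WT libraries began at 8.72 FPKM and its KI libraries at 9.55 FPKM, and the groups overlapped. Nnat, a paternally expressed proteolipid gene inside Blcap, ranged from 0.430 to 1.73 FPKM, and Peg13, a noncoding RNA inside Trappc9, from 4.98 to 8.25 FPKM. None of these 5 was called. Peg13 lies on the same strand as Trappc9, so reads of unspliced Trappc9 cannot be told apart from those of Peg13. Nap1l5 had at most 10 reads in a group. Slc38a4, an amino acid transporter gene, had 39 reads in WT and 5 in KI cells at d0, where its groups did not overlap, and 17 and 31 at d4. It did not pass the filter for either genotype comparison. Without the filter, edgeR called it lower in KI cells at d0 (log2 fold change -2.64, SE 0.68, adjusted p = 0.00521).

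**Figure D4:**
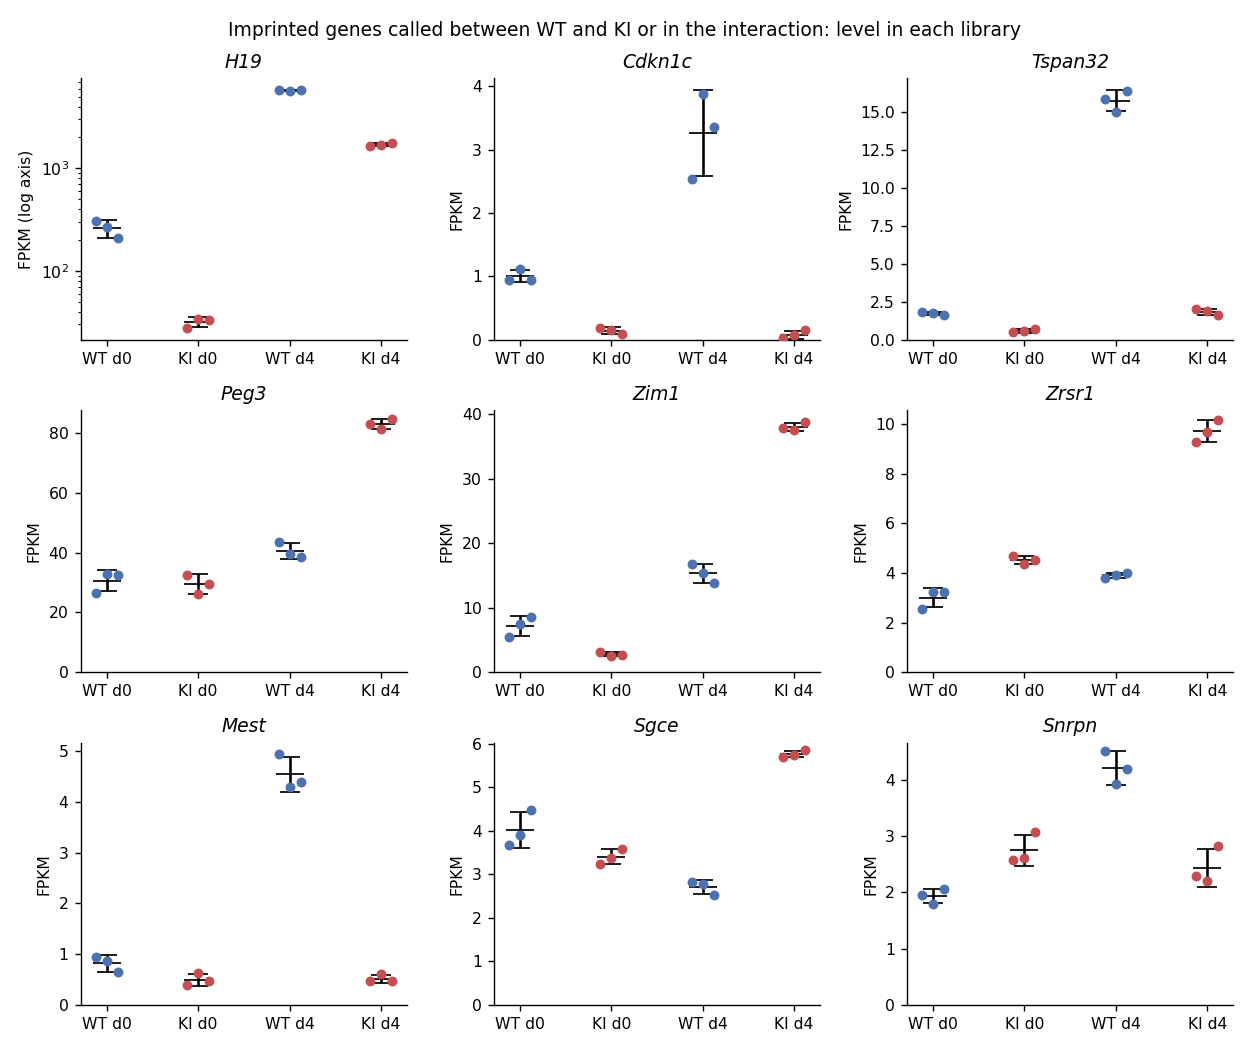
FPKM in each library (points; blue WT, red KI) of the 9 imprinted genes called between genotypes or in the interaction with a group mean of at least 1 FPKM, with the mean and SD of each group as black bars. The H19 axis is logarithmic and the other axes start at 0, and FPKM of the days were scaled separately. WT libraries of H19, Cdkn1c, Tspan32 and Mest lie above KI libraries at d4, while Peg3, Zim1, Zrsr1 and Sgce show the opposite order.

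Over differentiation the members, chosen with earlier results of these data known, rose more often than they fell. In WT cells, edgeR tested 25 members and called 10 higher and 1 lower at d4 than at d0, against 12.6% of all genes called higher and 13% called lower. In KI cells, 21 members were tested and 8 called higher and 1 lower, against 17.3% and 17.1%. The median log2 fold change of the members was 0.74 in WT and 0.73 in KI cells, beside -0.03 and -0.01 over all genes. Levels are compared between days in CPM, reads scaled to library size after TMM normalization, since FPKM of the days were scaled separately. The KI and WT values at a day enter both genotype and day comparisons, which thus share libraries.

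H19 rose in both genotypes, from a mean of 632 to 14557 CPM in WT (log2 fold change 4.53, SE 0.13, edgeR adjusted p = 2.96e-14) and from 77.4 to 4292 CPM in KI cells (5.81, SE 0.10, adjusted p = 5.98e-17). Tspan32 (3.25 in WT and 1.71 in KI cells), Zim1 (1.15 and 3.81) and Airn (1.78 and 2.31) also rose in both. Peg10 fell in both (-2.23 and -1.71), from 52.8 to 11.2 CPM in WT and from 30.0 to 9.04 CPM in KI cells. Cdkn1c (1.76), Cd81 (1.03), Snrpn (1.18), Mest (2.54), Plagl1 (1.77) and Grb10 (5.46) were called higher in WT cells. Plagl1 and Grb10 passed the filter on low counts only through their d4 libraries, so they could only be called higher. Their WT libraries at d0 held 4 to 6 and 1 to 4 reads, and neither was tested over days in KI cells. Kcnq1ot1 (1.14), Igf2r (1.21), Peg3 (1.55) and Zrsr1 (1.16) were called higher in KI cells. The call of Cd81 in WT cells was lost without a filter on low counts, at 0.9999. With limma on log2(FPKM + 1), Cd81 (0.96), Airn (0.92), Snrpn (0.83) and Grb10 (0.65) were not called in WT cells.

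**Figure D5:**
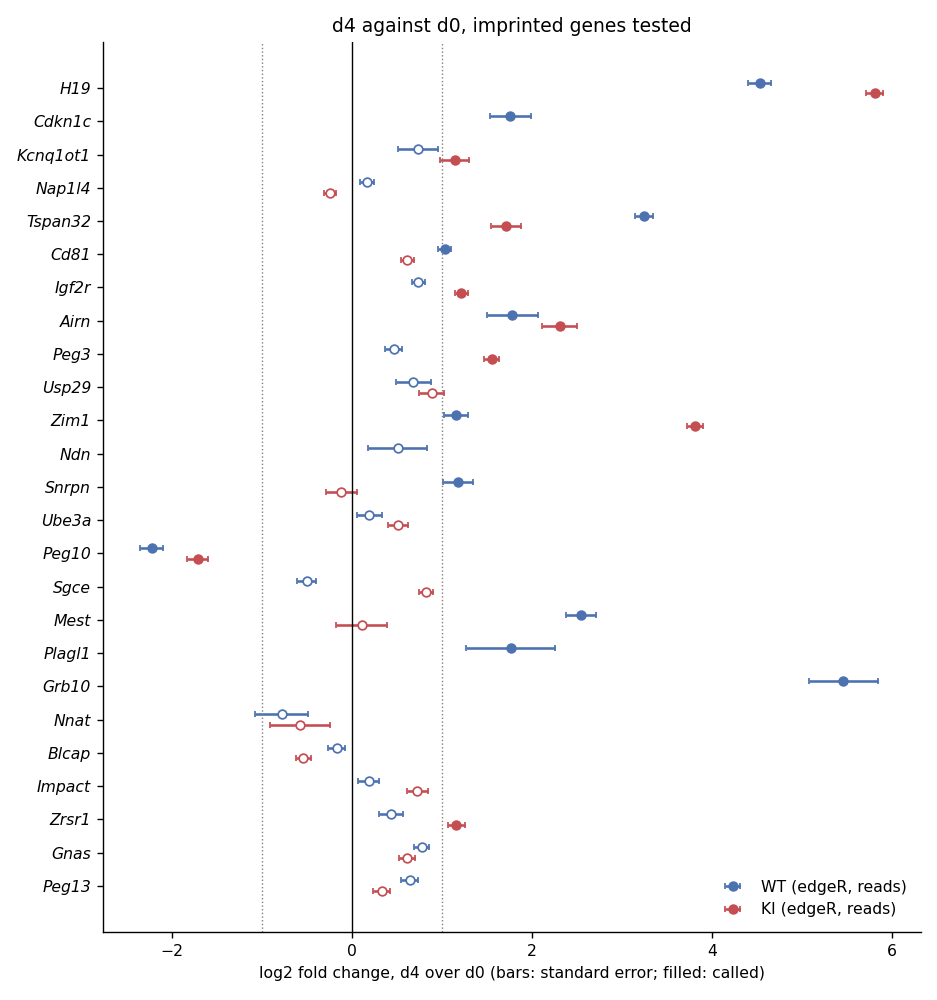
Log2 fold change of d4 over d0 (x axis, edgeR on reads) for every imprinted gene tested, in WT (blue) and KI (red) cells. Bars are standard errors, filled points are called genes and dotted lines mark -1 and 1. H19 lies at 4.53 in WT and 5.81 in KI cells, Peg10 left of -1 in both, and Mest at 2.54 in WT and 0.11 in KI cells.

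Whether the change with day differed between genotypes was tested as the interaction of genotype and day, in which the WT log2 change is subtracted from the KI log2 change. Of 26 members tested with edgeR, 5 were called higher (a KI log2 change above the WT one, signs kept) and 5 lower, against 8.68% and 7.95% of all genes. The median was 0.19 over the members and 0.01 over all genes. The higher ones were H19 (1.27, SE 0.15, adjusted p = 1.18e-06), Zim1 (2.64, SE 0.17, adjusted p = 3.57e-10), Peg3 (1.07, SE 0.13, adjusted p = 1.63e-06), Sgce (1.31, SE 0.12, adjusted p = 5.24e-08) and Slc38a4 (3.35, SE 0.92, adjusted p = 0.00595). The lower ones were Cdkn1c (-2.61, SE 0.66, adjusted p = 0.00331), Tspan32 (-1.55, SE 0.18, adjusted p = 8.63e-07), Mest (-2.44, SE 0.30, adjusted p = 1.51e-06), Snrpn (-1.31, SE 0.22, adjusted p = 8.23e-05) and Plagl1 (-4.74, SE 1.17, adjusted p = 0.00254). Slc38a4 and Plagl1 stayed below 1 FPKM in every library, and Plagl1 had 1 read in KI cells at d4, in replicate 3. Plagl1 passed the filter only through its WT libraries at d4. Without KI d4 replicate 3 the interaction was -6.65 for Plagl1 and -3.27 for Cdkn1c, and over all libraries left out it ranged from -6.65 to -4.22 and from -3.27 to -2.18. Mest rose from 3.17 to 18.4 CPM in WT cells and measured 1.94 and 2.06 CPM in KI cells, and Sgce measured 41.9 and 29.4 CPM in WT and 35.8 and 62.5 CPM in KI cells. The Peg3 value was 0.99 without KI d0 replicate 2 and was then not called.

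A wider list of 56 genes that are imprinted, or have been proposed as imprinted, in some mouse tissue was read in the same fits. At d0, 3 of 36 tested were higher and 3 lower in KI, against 3.03% and 9.21% of all genes. At d4, 4 of 31 were higher and 1 lower, against 1.76% and 5.98% of all genes. The called genes of this list with a group mean of at least 1 FPKM were, at d0, Ins2 (described above), the adhesion gene Cntn3 (log2 fold change 4.84) and Dcn, the matrix proteoglycan decorin (-2.26), which is also among the fibroblast markers. At d4 they were Cntn3 (2.06), Ampd3 (1.45), Jade1 (1.03), Cmah (1.03) and the sterol reductase gene Dhcr7 (-1.58). Cntn3 passed the filters only through its KI libraries, with WT means of 0.0431 FPKM at d0 and 0.0479 FPKM at d4. Of 25 factors that set or keep imprints, 0 of 21 tested were higher and 1 lower in KI at d0, and 0 of 20 were higher and 1 lower at d4. The 1 at d0 was Arid4b (-1.26, from a mean of 2.18 FPKM in WT to 0.930 FPKM in KI cells). The 1 at d4 was Zfp57, a zinc finger factor that holds methylation at imprinted control regions, at 4.34 FPKM in WT and 0.852 FPKM in KI cells (-1.53). Its d0 means were 4.38 and 2.34 FPKM and it was not called there. The DNA methyltransferase gene Dnmt1 and its partner Uhrf1 fell from d0 to d4 in both genotypes (-1.74 and -3.16 in WT, -1.67 and -4.25 in KI cells).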

How the data were processed

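Poly(A) RNA of 12 libraries was read as paired ends on an Illumina platform. The authors deposited read counts per gene for 9 libraries and FPKM for all 12. The submitters' processing notes list DESeq2 1.20.0 and the mm10 build. The aligner, the counter and strand handling: not given in the sources used here. For WT d4, 3 count columns repeat the KI d4 counts (74361 of 74361 cells) and were not used, so FPKM is the deposited unit there. FPKM of the days were scaled separately. WT d4 reads were worked back from FPKM: 100% of genes in each library came out whole within 0.01 reads. The rarest listed gene of a day had 2 reads over its 6 libraries.

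KI and WT at d0, the days and the interaction were compared with edgeR 4.0.16 (quasi-likelihood, TMM, filterByExpr) on reads, and d4 with limma 3.58.1 on log2(FPKM + 1) for genes at 0.5 FPKM or more in 3 libraries. Models were fitted over all genes and checked on simulated data. Members called between genotypes or in the interaction at 1 FPKM or more are given in full, others at 10 FPKM or more by library, and the rest by range or counts. Values added for Airn, Ndn, Grb10, Slc38a4, Usp29, single markers and the pathway partners were chosen after they were seen. So were the day changes of Dnmt1, Uhrf1 and Dnmt3a. Genes of the wider imprinted and maintenance lists were named when called at 1 FPKM or more, up to 4 per direction, and genes near H19 by position, chosen after their values were seen. Members and lists were chosen with earlier results of these data known. Intervals are Clopper-Pearson. Alternatives were DESeq2 1.42.0, RLE, quantile normalization, other pseudocounts, no filter, no fold threshold, a replicate block, 1 fit of all libraries and leaving out each library.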

Additional observations from a re-analysis of the deposited data

Results flagged for a closer look

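In 10 imprinted genes the change from d0 to d4 differed between KI and WT cells by the interaction test of edgeR. With signs kept, the log2 change of KI cells lay above that of WT cells in H19 (1.27), Peg3 (1.07), Zim1 (2.64), Sgce (1.31) and Slc38a4 (3.35). It lay below that of WT cells in Cdkn1c (-2.61), Tspan32 (-1.55), Snrpn (-1.31), Mest (-2.44) and Plagl1 (-4.74).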

How the results depend on the processing

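Calls were made on adjusted p and fold change together. With adjusted p alone, members higher and lower were 5 and 8 at d0, 7 and 9 at d4, 17 and 3 over days in WT, 15 and 3 over days in KI and 9 and 9 in the interaction, and all genes called rose to 6164, 7386, 8971, 10347 and 6835 from 1704, 1025, 3663, 4738 and 2514, of 13920, 13252, 14336, 13755 and 15114 tested. At d4, all genes called were 1690 with a pseudocount of 0.1 and 439 with a pseudocount of 5, which left 1 member higher and 2 lower (not called: Cdkn1c -0.70, Mest -0.79, Zrsr1 0.73, Peg3 0.95). On reads worked back, 7 members were lower with edgeR (2258 genes), 8 with DESeq2 (2450) and 7 in the fit of all 12 libraries (2385), and Sgce (1.08 to 1.09) and Grb10 (-5.87 to -5.99) were called. Igf2, with 2 reads in WT cells at d0, was called between genotypes at d4 by DESeq2 (-4.49) and over days in WT without the filter (3.55), by DESeq2 (3.85) and in 4 fits that left out 1 library (3.03 to 6.06). Slc38a4 was called lower at d0 by DESeq2 (-2.69), in the fit of all 12 libraries (-2.60) and in 4 fits that left out 1 library (-2.35 to -2.99), and higher over days in KI in 6 fits (2.21 to 2.86). With limma, 5 members were higher over days in WT (2066 genes) and 3 lower in the interaction (1405 genes), where Snrpn was -0.95 and not called. Quantile normalization took H19 at d4 to -0.997. The cause of these shifts was not tested.

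Leaving out 1 library gave 5 to 6 members lower and 0 higher at d0, and 2 to 3 higher and 3 to 4 lower at d4, where Peg3 ranged from 0.982 to 1.07. In the interaction 4 to 5 were higher, and Peg3 ranged from 0.986 to 1.16. Values near 0 that were not called changed sign. Leaving out 1 library gave, at d0, Kcnq1ot1 -0.12 to 0.083, Cd81 -0.046 to 0.052, Airn -0.15 to 0.58, Peg3 -0.16 to 0.0077, Nnat -0.16 to 0.22 and Peg13 -0.048 to 0.042. It gave Ube3a -0.035 to 0.054 at d4, Mest -0.049 to 0.29 over days in KI, and Nnat -0.00083 to 0.48 in the interaction. At d0, Peg13 was 0.0070 with RLE size factors, Kcnq1ot1 0.0069, Cd81 0.0074 and Peg13 0.015 with DESeq2, and Kcnq1ot1 0.0188, Cd81 0.0188 and Peg13 0.027 in the fit of all 12 libraries. At d4, quantile normalization gave Nap1l4 0.047 and Gnas 0.017.

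Replicate numbers did not pair libraries: deviations of libraries with the same number correlated at -0.63 to 0.10. With the replicate block, member counts did not change and all genes called were 1657 at d0, 1032 at d4, 3603 and 4733 over days in WT and KI, and 2443 in the interaction. Depth limits Igf2, Plagl1, Slc38a4 and the members of the Dlk1-Dio3 locus, each with at most 41 reads in a group.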
